A study of Mus musculus with 12 samples.

Results

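Aqp3, Cidea, Csn3 and Dleu7 are 4 genes with little in common as proteins that were chosen by their log2 signal on these arrays, for large differences from untreated cells after 2 to 6 h of retinoic acid (RA) in mouse embryonic stem (ES) cells, outside transcription factors and the enzymes of RA metabolism. All probe sets that the array's annotation names for them were taken, which gave 8 of the 45101 probe sets on the array and 4 of the 18193 genes measured. They had been grouped as membrane and secreted effectors, and as background knowledge that name holds for Aqp3 and Csn3 but not for Cidea, whose protein sits on lipid droplets, nor for Dleu7, whose protein is little studied. No protein was measured here, and the genes are called by their names below. Their levels are therefore described and not tested. The choice set no numerical threshold.

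The samples were KH2 cells, a line of mouse ES cells, grown on feeder cells in serum medium. Each group had 3 arrays, labelled A, B and C. One group had no RA, and the other 3 were kept for 2, 4 or 6 h in DMEM with serum, amino acids and 0.3 µM RA, which the labels call differentiation media. Medium and RA were given together, and the labels do not say that untreated cells received the medium without RA, so the 2 cannot be told apart in any comparison against no RA. All cells were trypsinised and replated on gelatin for 30 min before RNA was taken. The labels disagree on whether the attached cells or the spun-down medium were kept, and give no origin for the replicates. P-values thus cover only how far these samples differ, and that spread may be technical.

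RA enters the nucleus and binds RA receptors, which sit with RXR partners on DNA elements made of repeated short half-sites and turn nearby genes on within hours. Aqp3 encodes an aquaglyceroporin, a channel of the plasma membrane that passes water and glycerol and is best known from the kidney collecting duct and the basal layer of the epidermis. Cidea encodes a CIDE protein of the lipid droplet surface that helps droplets fuse and is a marker of brown fat. Csn3 encodes kappa-casein, the secreted milk protein that coats and stabilises casein micelles, and lies at one end of the casein gene cluster. Dleu7 takes its name from a chromosome region that is often deleted in lymphocytic leukaemia, and its product has been described as an inhibitor of NF-kB and NFAT signalling.

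Values are log2 signal as deposited, in which a difference of 1 is a 2-fold difference in signal. Array medians lay between 6.05 and 6.10. Untreated replicate C stood apart, with correlations of 0.994 and 0.993 to A and B over all probe sets, against 0.997 between A and B. In it 19 of the 21 measured markers of feeder fibroblasts were below the mean of A and B, by a median of 0.70. The mean log2 level of these 21 markers ran from 7.44 to 8.27 over the untreated arrays, from 8.04 to 8.22 at 2 h and from 8.12 to 8.27 at 4 h, and it was at most 8.15 at 6 h. Fewer cells of a type and less RNA per cell cannot be told apart in such bulk samples. Values against no RA are therefore also given without replicate C, and the part of the feeder cells in them was not tested.

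**Figure D1:**
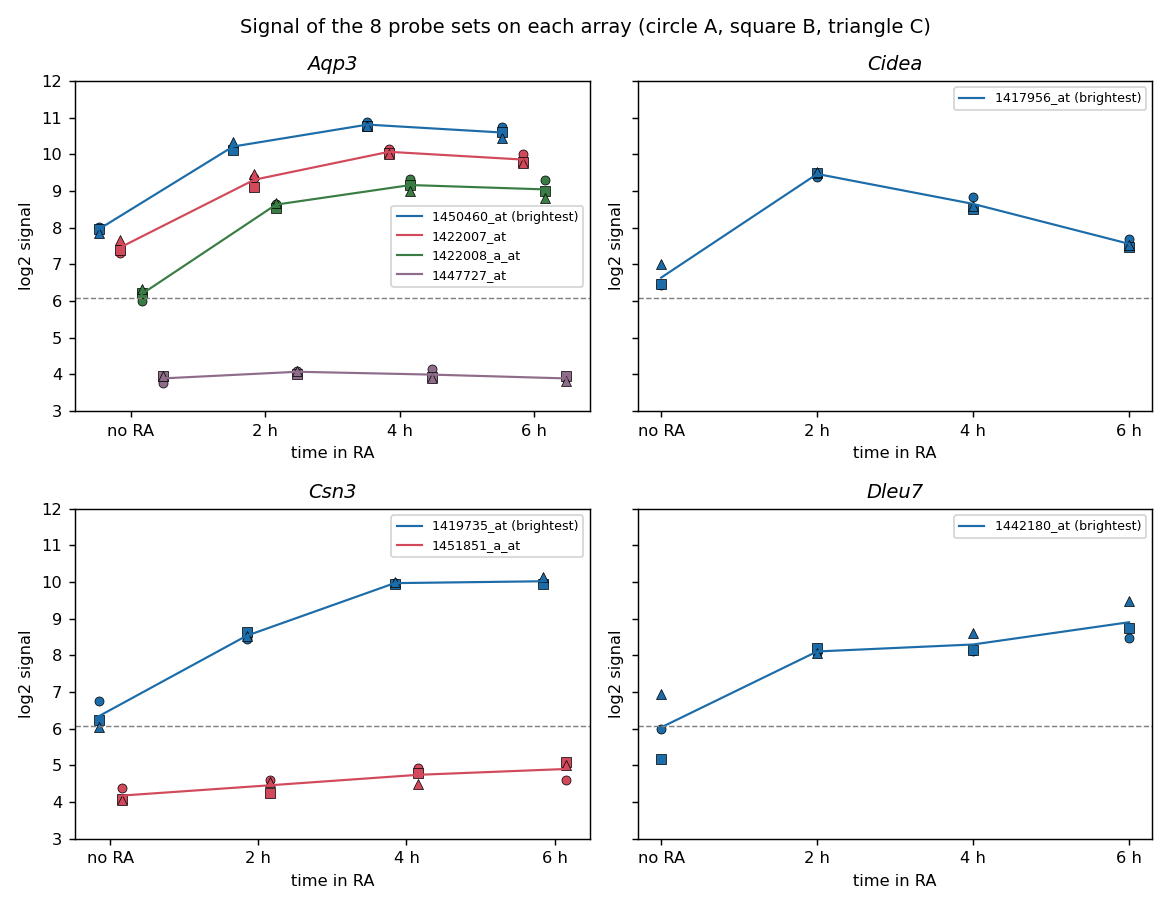
Log2 signal of the 8 probe sets (vertical axis) on each array, by time in RA (horizontal axis). Points are arrays, coloured lines join the group means of a probe set, and the dashed line is the median of all values (6.07). The brightest probe set of each gene was higher on every RA array than on every untreated one, while 1 probe set each of Aqp3 and Csn3 stayed under the dashed line on all 12 arrays.

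Aqp3 was read by 4 probe sets. The brightest, 1450460_at, gave 8.03, 7.97 and 7.86 on untreated arrays A, B and C. It gave 10.18, 10.11 and 10.34 at 2 h, 10.89, 10.78 and 10.77 at 4 h, and 10.73, 10.61 and 10.44 at 6 h. No RA array overlapped an untreated one, which held for 10.5%, 18.3% and 19.2% of all genes at 2, 4 and 6 h (all 3 arrays above all 3 untreated), and the arrays of 4 h lay above those of 2 h and just above those of 6 h. Against no RA (7.95 ± 0.09, SD, n = 3) the log2 difference was 2.26 ± 0.087 at 2 h, 2.86 ± 0.087 at 4 h and 2.64 ± 0.087 at 6 h (SE). In signal this is 4.79-fold, 7.25-fold and 6.25-fold higher. Without untreated replicate C the differences were 2.21, 2.81 and 2.60.

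Most of the difference in Aqp3 was thus present by 2 h. The step from 2 to 4 h added 0.60 ± 0.087 on the log2 scale with no overlap between arrays, as in 22.8% of all genes. From 4 to 6 h the mean was lower by 0.22 (log2 difference -0.22 ± 0.087), with a gap of only 0.031 between the nearest arrays (10.4% of all genes had no overlap in this direction), and on the probe sets 1422007_at and 1422008_a_at the arrays of 4 and 6 h overlapped. Levels at 4 and 6 h are therefore not set in order. Those same probe sets put the 4 h difference from no RA at 2.61 ± 0.11 and 2.98 ± 0.13. The fourth, 1447727_at, for which the annotation gives no accession, stayed between 3.76 and 4.16 on all 12 arrays, under the array median on each of them. Its 4 h difference was 0.10 ± 0.084.

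Cidea had 1 probe set, and a time course unlike that of the others. Its untreated values were 6.43, 6.47 and 7.01. They were followed by 9.38, 9.50 and 9.52 at 2 h, by 8.85, 8.52 and 8.58 at 4 h, and by 7.69, 7.47 and 7.52 at 6 h. The 4 groups did not overlap at any point, so the order of levels was 2 h, 4 h, 6 h and no RA. The log2 difference from no RA was 2.83 ± 0.14 at 2 h, 2.01 ± 0.14 at 4 h and 0.92 ± 0.14 at 6 h (SE). Between RA times the difference was -0.82 ± 0.14 from 2 to 4 h and -1.09 ± 0.14 from 4 to 6 h. Such lower levels without overlap were found in 23.3% and 10.4% of all genes. These last values rest on RA arrays alone and hold no untreated array.

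Untreated replicate C, the array with the low feeder markers, had the highest untreated Cidea value, and the untreated SD of 0.33 was larger than that of any RA group (0.08 to 0.18). Without it the differences from no RA were 3.01, 2.20 and 1.11 at 2, 4 and 6 h. In rank among all 18193 genes from the most positive log2 difference from no RA downwards, Cidea was 5th at 2 h, 22nd at 4 h and 202nd at 6 h. Csn3 went the other way, from 9th to 3rd and 3rd. Aqp3 was 8th, 6th and 12th and Dleu7 was 11th, 14th and 8th. At 6 h the genes next above and below in this ranking were Stra8 (2.64) and Foxa1 (2.56) for Aqp3, Myrf (0.92) and Pim1 (0.92) for Cidea, Hoxb1 (5.69) and Cdx1 (3.43) for Csn3, and Hoxa4 (2.95) and Meis2 (2.78) for Dleu7.

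Csn3 was read by 2 probe sets. On the brightest, 1419735_at, the untreated arrays gave 6.75, 6.23 and 6.04. The arrays of 2 h gave 8.44, 8.64 and 8.53, those of 4 h 9.96, 9.95 and 10.00, and those of 6 h 9.97, 9.95 and 10.14. The arrays of no RA, 2 h and 4 h did not overlap, and those of 4 and 6 h did, with means of 9.97 ± 0.03 and 10.02 ± 0.11 (SD, n = 3). The log2 difference from no RA was 2.20 ± 0.14, 3.63 ± 0.14 and 3.68 ± 0.14 at 2, 4 and 6 h (SE). The step from 2 to 4 h was 1.44 ± 0.14 and that from 4 to 6 h 0.05 ± 0.14, so no order is given between 4 and 6 h.

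The untreated value of Csn3 on replicate C lay under the median of its array, and background was not measured, so no fold is given. Without replicate C the differences were 2.05, 3.48 and 3.53. The other Csn3 probe set, 1451851_a_at, read from 4.07 to 5.08, under the array median on all 12 arrays. Its differences from no RA had the same sign and were far smaller, at 0.28 ± 0.15, 0.57 ± 0.15 and 0.72 ± 0.15.

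Dleu7 had 1 probe set, 1442180_at, and the widest spread. Untreated arrays A, B and C gave 5.98, 5.18 and 6.96, the first 2 of them under their array medians. The RA arrays gave 8.06, 8.19 and 8.07 at 2 h, 8.12, 8.16 and 8.62 at 4 h, and 8.47, 8.75 and 9.49 at 6 h. Every RA array was above every untreated one, by at least 1.10 on the log2 scale, while the arrays of 2 and 4 h overlapped, as did those of 4 and 6 h. The log2 difference from no RA was 2.07 ± 0.36, 2.26 ± 0.36 and 2.87 ± 0.36 at 2, 4 and 6 h (SE).

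The SE of Dleu7 was the largest among the 4 genes and came with an untreated SD of 0.89, against 0.07 at 2 h. Without untreated replicate C the differences were 2.53, 2.72 and 3.33, and without untreated replicate B they were 1.64, 1.83 and 2.44. The step from 2 to 4 h was 0.19 ± 0.36 and that from 4 to 6 h 0.61 ± 0.36. No order of levels among the RA times is given for this gene.

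**Figure D2:**
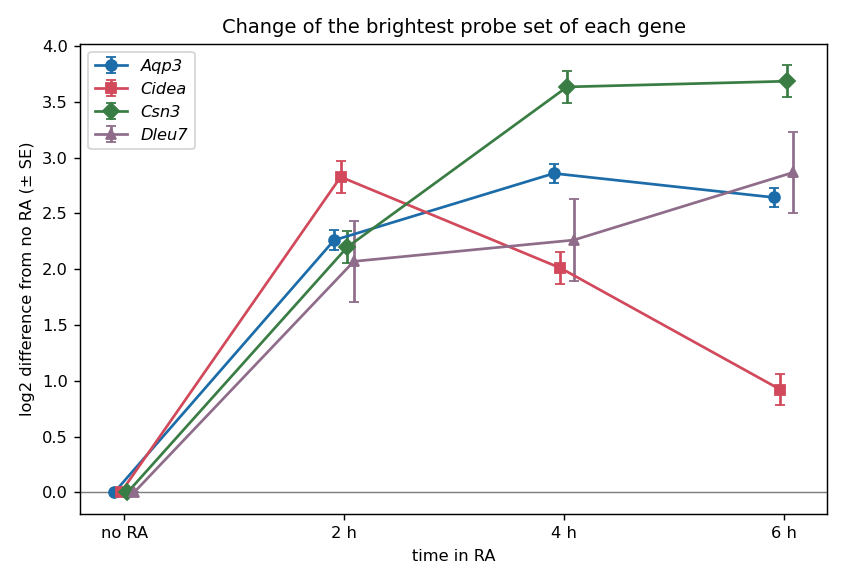
Log2 difference from no RA (vertical axis) of the brightest probe set of each gene against time in RA (horizontal axis), as group means of 3 arrays with the SE of the fit. Cidea is highest at 2 h (2.83) and lowest at 6 h (0.92), Csn3 reaches 3.63 at 4 h and stays there, and Aqp3 and Dleu7 stay between 2.07 and 2.87.

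RefSeq's promoter table (GRCm38.p6) held 2 of the 4 genes. The 250 bases before their annotated start sites are printed because both genes were high by 2 h and the RA receptor's half-sites can be looked for there. Capitals mark a TATA box (TATAAA) in the first and half-sites in the second, which were searched on both strands as AGGTCA, then as AGTTCA, then as GGGTCA and lastly as GGTTCA. Aqp3 lies on the minus strand of chromosome 4, at 41092724 to 41098183, and the stretch shown is chr4:41098184-41098433. Dleu7 lies on the minus strand of chromosome 14, at 62276229 to 62292979, and the stretch shown is chr14:62292980-62293229.
Aqp3: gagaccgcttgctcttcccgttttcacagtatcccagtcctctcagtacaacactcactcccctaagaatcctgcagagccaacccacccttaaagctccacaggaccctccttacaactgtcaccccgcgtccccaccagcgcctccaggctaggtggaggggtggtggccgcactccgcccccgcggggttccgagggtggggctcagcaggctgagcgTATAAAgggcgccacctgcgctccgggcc
Dleu7: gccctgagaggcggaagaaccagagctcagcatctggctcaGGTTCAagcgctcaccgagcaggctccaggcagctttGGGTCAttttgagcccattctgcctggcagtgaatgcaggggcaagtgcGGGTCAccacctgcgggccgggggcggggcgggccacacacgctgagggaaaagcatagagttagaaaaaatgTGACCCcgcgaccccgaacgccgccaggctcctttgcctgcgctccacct

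The Aqp3 stretch held none of the half-sites and a TATAAA that begins 29 bases before the start. Of the 32851 promoters of the table, 12.4% held TATAAA on either strand in the same window. The Dleu7 stretch held 4 half-site matches and no TATAAA. They began 209, 172 and 123 bases before the start on the gene's strand (GGTTCA first and GGGTCA for the other two) and 50 bases before it on the opposite strand (printed as TGACCC). At least 1 match was present in 38.6% of all promoters, and 4 or more in 0.314%. Neither stretch held 2 half-sites as a direct repeat spaced by 1, 2 or 5 bases (named DR1, DR2 and DR5), which 0.164%, 0.174% and 0.0883% of promoters did. These matches describe letters in a short window and do not show binding. GC content was 64% for Aqp3 and 63.2% for Dleu7, against a median of 52.4% over the table. Csn3 lies on chromosome 5, at 87925579 to 87932550, and Cidea on chromosome 18.

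The genes whose signal followed each of the 4 most closely were found by Pearson correlation over the 12 arrays, among the 506 other genes whose highest and lowest group means differed by at least 1 on the log2 scale. These r values describe arrays that share treatment groups and carry no p. For Aqp3 they were Cyp26a1, the enzyme that degrades RA (r = 0.99), the caudal homeobox gene Cdx1 (0.99), the acid phosphatase Acp5 (0.98), the ETS repressor Erf (0.98) and Prrt3 (0.98). Cyp26a1 was much further from its untreated level than Aqp3 at 4 h, with log2 differences of 6.85 and 2.86, so the likeness is one of shape. For Csn3 they were Dppa2 (0.99), Foxp1 (0.99), Hoxb1 (0.99), the RA receptor gene Rarg (0.98) and the autophagy receptor gene Calcoco2 (0.98).

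Cidea had few close companions. Only 2 of the 506 candidates had r above 0.95, against 19 for Aqp3, 26 for Csn3 and 6 for Dleu7. They were Tal2 (0.98), a basic helix-loop-helix factor gene that stood 3.06, 2.08 and 1.24 above no RA at 2, 4 and 6 h, and Lrtm2 (0.97). Pptc7 (0.92), Aebp2 (0.91) and Zfp654 (0.90) came next. For Dleu7 they were the retinaldehyde reductase gene Dhrs3 (0.97), the bZIP factor gene Jdp2 (0.96), Eva1a (0.96), the RA-responsive germ line gene Stra8 (0.95) and H2-Bl (0.95). In all 5 of these genes, as in Dleu7, untreated replicate B was the lowest and C the highest of the untreated arrays. For Dhrs3 these 3 values were 6.59, 5.63 and 7.19 on A, B and C. At 4 and 6 h replicate C was again the highest array of its group for Dleu7, Dhrs3, Stra8 and H2-Bl. For Jdp2 this held at 6 h only, and for Eva1a at neither time. How far these shared deviations of single arrays enter the r values was not tested. Among the 4 genes themselves, r was 0.96 between Aqp3 and Csn3 and 0.48 between Cidea and Csn3.

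**Figure D3:**
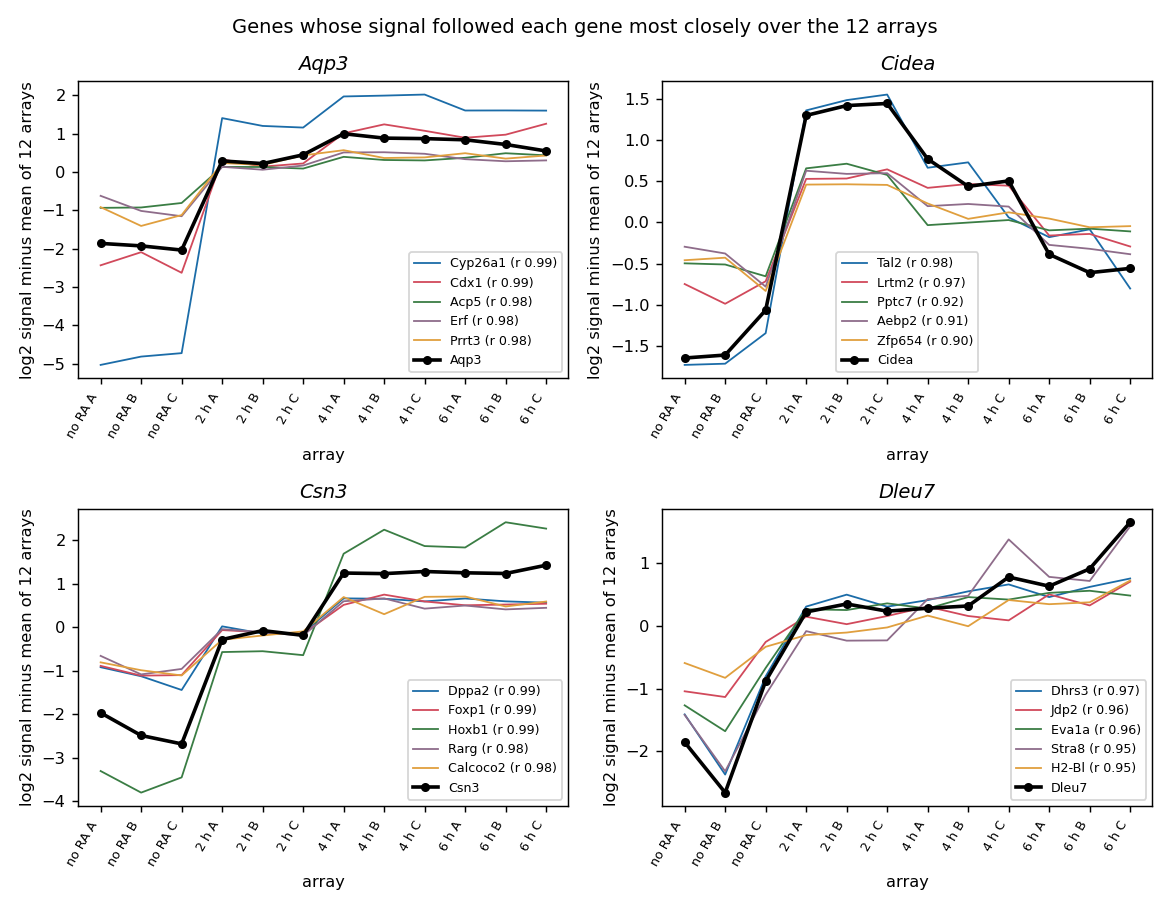
Log2 signal minus the mean of the 12 arrays (vertical axis) for each gene (black) and its 5 closest genes by Pearson correlation (colours), array by array (horizontal axis). Lines only guide the eye across arrays, since replicates have no order. Cidea and Tal2 are highest on the 3 arrays of 2 h, and Dleu7 and its companions share low values on untreated replicate B.

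The genes beside the 4 on their chromosomes were not used to choose them, so they could be tested. The 3 nearest measured genes on each side gave 24 neighbours. By limma with Benjamini-Hochberg adjustment over all genes (adjusted p under 0.05), 0 were higher and 1 lower at 2 h, 2 higher and 1 lower at 4 h, and 2 higher and 0 lower at 6 h. This is 4.17%, 12.5% and 8.33% of the neighbours, beside 2.68%, 26.9% and 29.7% of all genes. Split by direction, all genes gave 1.5%, 12.8% and 15.0% higher and 1.19%, 14.1% and 14.7% lower. Before adjustment, 1, 6 and 5 neighbours had p under 0.05, and the share of all genes at that threshold is not given. The median log2 difference of the neighbours was 0.01, 0.01 and 0.04, and that of all genes 0.00, 0.00 and -0.01. Of the 24, 9 lay under the array median on all 12 arrays, and 5 of those 9 were neighbours of Csn3.

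Near Aqp3, the sister channel gene Aqp7, which lies 44.5 kb away and was under the array median on all arrays, had log2 differences of -0.05 ± 0.13, -0.18 ± 0.13 and 0.07 ± 0.13 at 2, 4 and 6 h (SE) and did not pass. On the other side the ribosome biogenesis gene Nol6, 16.2 kb away, rose at 6 h by 0.26 ± 0.083 (limma, adjusted p = 0.0303). That call ended without untreated replicate B and without RA 6 h replicate A or C. Near Cidea, the tubulin gene Tubb6 rose at 4 h by 0.21 ± 0.061 (limma, adjusted p = 0.0237) and the phosphoesterase gene Mppe1 at 6 h by 0.23 ± 0.077 (limma, adjusted p = 0.0422). The Tubb6 call ended without untreated replicate A and without RA 4 h replicate A or C, and the Mppe1 call ended without any 1 of the 3 untreated arrays and without RA 2 h replicate B, RA 4 h replicate A or C, or RA 6 h replicate A or C.

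No neighbour of Csn3 passed by limma at any of the 3 times, and 0 of the 6 had an unadjusted p under 0.05. They were Odam, Prr27, Csn1s2b, Cabs1, Smr3a and Smr2, with log2 differences between -0.18 and 0.14 and SEs up to 0.15. Near Dleu7 the nearest measured gene, Rnaseh2b, a subunit of RNase H and 39.1 kb away, had 0.01 ± 0.058, 0.06 ± 0.058 and 0.05 ± 0.058. The ubiquitin ligase gene Trim13, as far as 665.9 kb away, fell by 0.47 ± 0.084 at 2 h (limma, adjusted p = 0.0115). At 4 h Trim13 fell by 0.50 ± 0.084 (limma, adjusted p = 0.000978), and at 6 h it was at -0.17 ± 0.084. Its 2 h call ended without RA 2 h replicate B or C. Fam124a, 262.8 kb away and under the array median on all arrays, rose by 0.40 ± 0.11 at 4 h (limma, adjusted p = 0.0166). That call ended without RA 4 h replicate B.

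**Figure D4:**
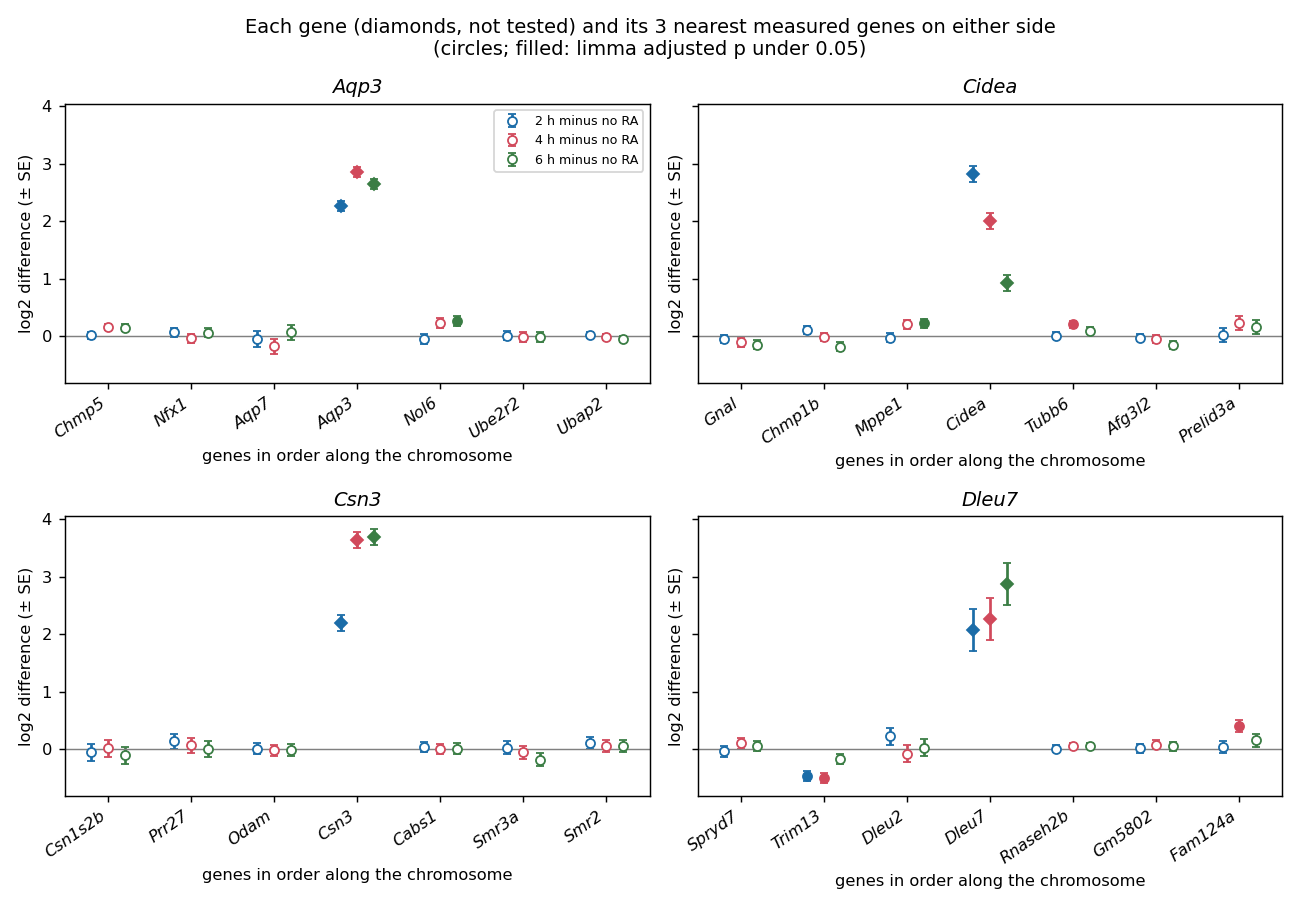
Log2 difference from no RA with the SE of the fit (vertical axis) for each of the 4 genes (diamonds) and its 3 nearest measured genes on each side in chromosomal order (circles), at 2, 4 and 6 h. Filled circles passed limma. The diamonds lie between 0.92 and 3.68, and no circle lies further from 0 than Trim13 at 4 h (-0.50).

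Relatives of the 4 genes were taken from 7 lists of families and pathways, with the 4 genes themselves left out. Of the 93 genes of these lists that were measured, limma called 4 higher and 3 lower at 2 h, 15 and 16 at 4 h, and 14 and 16 at 6 h. This is 7.53%, 33.3% and 32.3%, beside 2.68%, 26.9% and 29.7% of all genes, so the shares at 4 and 6 h were near the background. The 2 h count was 3 without RA 2 h replicate B, 4 without RA 2 h replicate A or C or untreated replicate A, and 2 in a fit of the untreated and 2 h arrays alone. Calls over all 18193 genes were then also fewer than the 488 of the full fit, at 219 without RA 2 h replicate B, 229, 241 and 349 without RA 2 h replicate A, RA 2 h replicate C and untreated replicate A, and 134 in the fit of 2 groups. Between 2 and 4 h, limma called 26 of 93 relatives and 4 of 24 neighbours, beside 24.6% of all genes. Between 4 and 6 h it called 0 of both, beside 0.588% of all genes. Before adjustment, 14 relatives and 3 neighbours had p under 0.05 in this comparison, and the share of all genes at that threshold is not given.

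No other aquaporin gene passed by limma. Of the 11 measured, 0 were called at each time. Before adjustment 1 had p under 0.05 at each, and the share of all genes at that threshold is not given. Their log2 differences lay between -0.27 and 0.31 with SEs up to 0.17, and 6 of the 11 were under the array median on all arrays. For such dim genes a missing call says little about their response. Aqp9, the other aquaglyceroporin gene named here beside Aqp7, was at -0.01 ± 0.12, -0.06 ± 0.12 and -0.08 ± 0.12. Among 12 genes of glycerol uptake and use, 0, 2 and 2 were higher and 0, 3 and 3 lower at 2, 4 and 6 h. This is 41.7% at both later times, beside 26.9% and 29.7% of all genes. None of the 12 had an unadjusted p under 0.05 at 2 h. The lipoprotein lipase gene Lpl fell by 1.10 ± 0.10 and 1.38 ± 0.10 at 4 and 6 h. The mitochondrial glycerol phosphate dehydrogenase gene Gpd2 fell by 0.29 ± 0.059 and 0.39 ± 0.059, and Gpd1l by 0.25 ± 0.071 and 0.31 ± 0.071. Gpam, the first acyltransferase of triglyceride synthesis, rose by 0.28 ± 0.067 and 0.29 ± 0.067 at these 2 times.

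The lipid droplet list moved in both directions. Of its 21 measured genes, 1, 6 and 8 were higher and 0, 4 and 3 lower at 2, 4 and 6 h. This is 4.76%, 47.6% and 52.4%, beside 2.68%, 26.9% and 29.7% of all genes. The median log2 differences were -0.04, 0.08 and 0.10 beside 0.00, 0.00 and -0.01 over all genes. Of the sister genes of Cidea, Cidec, under the array median on all arrays, did not pass (0.03 ± 0.13, -0.09 ± 0.13 and -0.14 ± 0.13). Cideb fell by 0.26 ± 0.063 at 4 h (limma, adjusted p = 0.0101). Fitm2 helps droplets form at the endoplasmic reticulum. At 2 h, when Cidea was highest, it was the only gene of the list called higher (0.47 ± 0.071, limma, adjusted p = 0.00384). That 2 h call ended in a fit of the untreated and 2 h arrays alone. Fitm2 was also called at 4 h (0.25 ± 0.071, limma, adjusted p = 0.0226) but not at 6 h. Plin2 did not pass at 2 h, with a log2 difference of 0.34 ± 0.085 (limma, adjusted p = 0.0593). Its arrays of 2 h nevertheless lay above all untreated ones, as in 10.5% of all genes.

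Later the hormone-sensitive lipase gene Lipe rose by 0.84 ± 0.14 and 0.90 ± 0.14 at 4 and 6 h. Hilpda, an inhibitor of the triglyceride lipase ATGL, rose by 0.70 ± 0.11 and 0.79 ± 0.11, and another such inhibitor, G0s2, by 1.26 ± 0.23 at 6 h. Of the perilipin genes, Plin2 rose by 0.49 ± 0.085 and 0.39 ± 0.085 and Plin3 fell by 0.65 ± 0.095 and 0.87 ± 0.095 at 4 and 6 h. Pnpla2, which encodes ATGL itself and was named after its values were seen, fell by 0.32 ± 0.084 and 0.41 ± 0.084 at 4 and 6 h (limma, adjusted p = 0.0155 and 0.00305). The Pnpla2 call at 4 h ended without RA 4 h replicate B. Abhd5 of the same list, also named after its values were seen, rose by 0.20 ± 0.065 and 0.28 ± 0.065 at 4 and 6 h (limma, adjusted p = 0.0377 and 0.00583). It is left out of the counts of named genes below. No activity of ATGL was measured.

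The casein cluster and other milk genes were called less often than all genes at 4 and 6 h, but not at 2 h. Of 13 measured genes, 1, 1 and 1 were higher and 0, 0 and 1 lower at 2, 4 and 6 h. This is 7.69%, 7.69% and 15.4%, beside 2.68%, 26.9% and 29.7% of all genes. Of the 13, 9 were under the array median on every array. The other caseins did not pass: Csn1s1 was at 0.13 ± 0.10, -0.05 ± 0.10 and -0.14 ± 0.10, Csn2 at 0.12 ± 0.075, -0.02 ± 0.075 and -0.11 ± 0.075, and Csn1s2a at 0.24 ± 0.11, 0.15 ± 0.11 and 0.06 ± 0.11. The mucin gene Muc1 rose by 0.47 ± 0.11, 0.84 ± 0.11 and 0.83 ± 0.11 and is expressed in many epithelia. Its 2 h call ended without any 1 of the 3 arrays of 2 h, and without untreated replicate A or C, RA 4 h replicate A or RA 6 h replicate B. The milk fat globule gene Mfge8 fell by 0.28 ± 0.098 at 6 h (limma, adjusted p = 0.0458), a call that ended without untreated replicate C, without any 1 array of 2 h, and without RA 4 h or RA 6 h replicate B or C.

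In the mammary gland, prolactin acts on casein genes through STAT5. The prolactin receptor gene Prlr had no probe set of its own and was not measured. Of 9 measured genes of that pathway, 1, 3 and 2 were higher and 1, 2 and 3 lower. This is 22.2%, 55.6% and 55.6%, beside 2.68%, 26.9% and 29.7% of all genes. Stat5a fell by 0.40 ± 0.092 and 0.41 ± 0.092 and Stat5b by 0.40 ± 0.082 and 0.39 ± 0.082 at 4 and 6 h. No activity of STAT5 was measured, and a link of these levels to Csn3 was not tested. Cebpb, a factor that also acts on milk genes, rose by 0.41 ± 0.095, 0.59 ± 0.095 and 0.82 ± 0.095, and Nfib by 0.36 ± 0.11 and 0.69 ± 0.11 at 4 and 6 h. The STAT5 feedback gene Socs2 fell by 0.81 ± 0.16 at 2 h. The Cebpb call at 2 h ended without untreated replicate A or C, without any 1 array of 2 or 4 h, and without RA 6 h replicate A or B. It also ended with a replicate block, with median centring, with probe sets averaged per gene and in a fit of the 2 groups alone. That of Socs2 ended without untreated replicate A or RA 2 h replicate A or B, and that of Nfib at 4 h without untreated B, untreated C, RA 4 h A or RA 4 h B.

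For the pathways tied to Dleu7, 1, 4 and 2 of 20 NF-kB and NFAT genes were higher and 1, 4 and 4 lower at 2, 4 and 6 h. This is 10.0%, 40.0% and 30.0%, beside 2.68%, 26.9% and 29.7% of all genes. Nfatc4 fell by 1.39 ± 0.13 and 0.90 ± 0.13 at 4 and 6 h, and Relb by 0.83 ± 0.084 and 0.76 ± 0.084. Nfkb2 fell by 0.37 ± 0.068 and 0.21 ± 0.068 at 4 and 6 h. Nfkbie, an inhibitor of NF-kB that was under the array median on all arrays, fell by 0.67 ± 0.11 at 2 h. Nfkbia, another inhibitor, fell by 0.28 ± 0.079 at 6 h. The receptor gene Tnfrsf13c rose by 0.94 ± 0.12, 0.52 ± 0.12 and 0.51 ± 0.12. The Nfkbia call ended without RA 6 h replicate B or C.

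Of 10 measured genes from the Dleu region and nearby blocks, 0, 0 and 0 were higher and 1, 3 and 2 lower by limma. This is 10.0%, 30.0% and 20.0%, beside 2.68%, 26.9% and 29.7% of all genes. Before adjustment, 4, 5 and 3 of the 10 had p under 0.05. The share of all genes at that threshold is not given, so these counts cannot be judged against it. Beside Trim13, Rcbtb2 fell by 0.42 ± 0.10 and 0.36 ± 0.10 and Ebpl by 0.35 ± 0.069 and 0.22 ± 0.069 at 4 and 6 h. Dleu2, named for the same region, was at 0.23 ± 0.15, -0.08 ± 0.15 and 0.03 ± 0.15 and lay under the array median on every array. The Rcbtb2 call at 6 h ended without RA 6 h replicate A or B, and that of Ebpl without untreated replicate C or any 1 of the 3 arrays of 6 h. When probe sets of 1 gene were averaged in place of taking the brightest, neither gene was called at 4 h, Ebpl was not called at 6 h, and Rcbtb2 stood at 0.017 at 6 h.

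**Figure D5:**
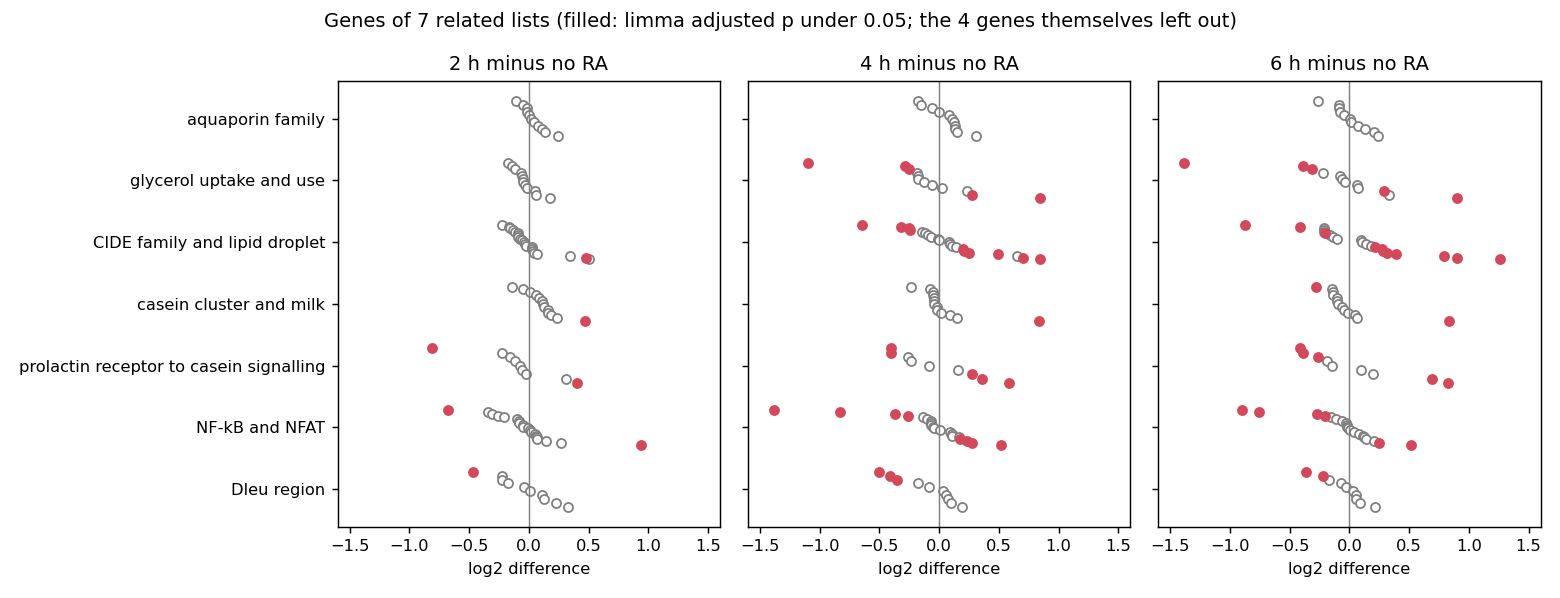
Log2 difference from no RA (horizontal axis) of the measured genes of 7 lists of relatives (rows) at 2, 4 and 6 h (panels). Filled points passed limma and open points did not. No aquaporin gene is filled, and at 4 and 6 h the other rows hold filled points on 1 or both sides of 0.

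The cell types that the 4 genes are best known from were looked for by their markers. Beside them, 1.5%, 12.8% and 15.0% of all genes were called higher and 1.19%, 14.1% and 14.7% lower at 2, 4 and 6 h. Of 8 mammary secretory markers, limma called 0 at each time, with 0 at an unadjusted p under 0.05, and 7 of the 8 were under the array median on every array. The mean log2 level of these 8 markers was 4.46 to 4.55 without RA, 4.61 to 4.76 at 2 h, 4.39 to 4.62 at 4 h and 4.45 to 4.55 at 6 h. Of 10 brown fat markers, 0, 0 and 0 were higher and 0, 1 and 1 lower, Ucp1 being the lower one (by 0.36 ± 0.11 and 0.39 ± 0.11 at 4 and 6 h), and 8 of the 10, Ucp1 among them, were under the array median throughout. The Ucp1 calls ended without untreated replicate A, without RA 4 h replicate A or B at 4 h, and without RA 6 h replicate A at 6 h. Their mean level was 5.00 to 5.20 without RA and 4.96 to 5.12 at 6 h. Of 10 epidermal and epithelial markers, 0, 0 and 0 were higher and 0, 1 and 2 lower, and 5 of the 10 were under the array median throughout. The mean level of the 10 was 7.33 to 7.38 without RA and 7.19 to 7.25 at 6 h. That mean holds Cdh1 and Epcam, at 12.47 and 12.60 without RA, and Epcam was the lower gene at 4 h. Both were named after their values were seen and are left out of the counts of named genes below.

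Markers of ES cells were bright, with a mean log2 level over 10 genes of 12.69 to 12.73 without RA, 12.70 to 12.72 at 2 h, 12.34 to 12.45 at 4 h and 12.28 to 12.38 at 6 h. Of them 1, 0 and 1 were higher and 0, 6 and 6 lower. Of 10 primitive endoderm markers, 0, 1 and 1 were higher and 0, 1 and 1 lower, and of 10 trophoblast markers 1, 3 and 1 were higher and 0, 0 and 0 lower. Of the 21 feeder markers 0, 3 and 2 were higher and 0, 0 and 0 lower, with 6, 7 and 2 at an unadjusted p under 0.05. For that unadjusted threshold the share of all genes is not given. The shares called at 4 and 6 h were 20.0% and 20.0% for primitive endoderm, 30.0% and 10.0% for trophoblast and 14.3% and 9.52% for feeder markers.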

How the data were processed

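RNA of 12 samples (200 ng each, labelled with biotin) was measured on Affymetrix mouse arrays. The deposited values are log2 signal per probe set. The submitters' processing notes list limma 3.4.3, and the method of background correction and normalization is not given in the sources used here. No further normalization was applied. Probe sets were named from the platform's annotation: 34958 for 1 gene, 932 for several (left out) and 9211 for none, and 64 control probe sets were left out. Each of 18193 genes was represented by its brightest probe set, taken by the mean of the 12 arrays.

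One model of the 4 group means was fitted per gene with limma 3.58.1 (R 4.3.3; eBayes with 8 residual and 3.78 prior degrees of freedom). A call needed an adjusted p under 0.05, by Benjamini-Hochberg over all genes. Errors are the SE of that fit unless SD is stated. The 3 arrays per group limit the precision. The fit was also run on simulated data. These drew each value independently, so no array deviated as a whole, as untreated replicate C did. Their outcome is not given here. The 4 genes, the lists and the rule for named genes were chosen with earlier results of these data known. The rule took the 4 genes, up to 4 called genes per list and time whose arrays did not overlap, their direct paralogues, and the 5 closest genes of each by correlation over the arrays. Pnpla2, Ucp1, Abhd5, Cdh1 and Epcam were named after their values were seen. Listed genes with no probe set of their own were not analysed here. Neighbours came from RefSeq's gene order (GRCm38.p6). Among the alternatives tried were a replicate block, single arrays left out in turn, 0.01 as the threshold, separate fits of each pair of groups, and weights per array. Others used a trended, robust variance, no dim genes, all probe sets or their mean per gene, and arrays that were centred on their medians or quantile normalized. Figures were drawn with matplotlib 3.10.9.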

Additional observations from a re-analysis of the deposited data

Results flagged for a closer look

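Among the relatives, neighbours and markers named above, 21 also differed between 2 and 4 h of RA by limma (adjusted p under 0.05 over all genes), with no overlap between the arrays of the 2 times. The log2 level at 4 h was above that at 2 h by 0.90 for Lipe, 0.79 for Hilpda, 0.59 for Nfib, 0.55 for Socs2, 0.54 for Nfkbie, 0.37 for Muc1, 0.36 for Fam124a, 0.33 for Gpam, 0.27 for Nol6, 0.24 for Mppe1 and 0.20 for Tubb6. The log2 difference from 2 to 4 h was -1.13 for Nfatc4, -1.07 for Lpl, -0.67 for Plin3, -0.49 for Relb, -0.42 for Tnfrsf13c, -0.41 for Ucp1, -0.37 for Nfkbia, -0.34 for Stat5b, -0.23 for Fitm2 and -0.22 for Gpd2. Of all genes, 24.6% passed this comparison. Most of the 21 were named for a call against no RA that used some of the same arrays, so the 2 figures cannot be compared. The mean levels of Fitm2, Tnfrsf13c, Nfkbia, Plin3 and Ucp1, like that of Cidea, were highest at 2 h. For Nfkbia, Plin3 and Ucp1 the 2 h difference from no RA did not pass (0.27 ± 0.079, 0.03 ± 0.095 and 0.04 ± 0.11, SE).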

How the results depend on the processing

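Of the log2 differences of the 4 genes, 239 of 240 with 1 array left out kept their sign and moved by less than 1 SD. Under other alternatives 92 of 100 did. Leaving out 1 of 3 arrays cannot move a group mean by 1 SD, and an array outside the comparison moves nothing. A replicate block leaves these differences unchanged as well. The size of these counts was thus largely fixed in advance and says little about how firm the differences are. With probe sets averaged per gene, Aqp3 was 1.68, 2.14 and 1.97 above no RA at 2, 4 and 6 h and 0.45 higher at 4 h than at 2 h. Csn3 was then 1.24, 2.10 and 2.20 above no RA and 0.86 higher at 4 h than at 2 h, since the dim probe sets enter the mean. With 1 array left out, the step of Csn3 from 4 to 6 h ran from -0.01 (without RA 6 h replicate C) to 0.086 (without RA 6 h replicate B), and with probe sets averaged per gene it was 0.105. Calls of named genes held in 585 of 648 fits with 1 array left out. With probe sets averaged per gene Rcbtb2 at 6 h changed sign (0.017), and the cause was not tested.

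Called relatives numbered 2 at 2 h and 16 at 4 h in fits of only the groups compared, and 3 and 18 at an adjusted p under 0.01. With 1 array left out, the 2 h count ran from 3 (RA 2 h replicate B) to 9 (untreated replicate C). Called neighbours at 2 h were 0 in fits of only the groups compared and at 0.01, and from 0 to 1 with 1 array left out. At 4 h they were 5 without dim genes, 5 with a trended variance, 6 with array weights, 1 at 0.01, and from 2 (without RA 4 h replicate B) to 5 (without untreated replicate C). At 6 h they were 1 with median centring, with probe sets averaged per gene and with every probe set, 0 in fits of only the groups compared and at 0.01, and from 0 to 2 with 1 array left out. The separate fits hold fewer samples. They ended the calls of Cebpb, Fitm2, Socs2, Trim13 and Tnfrsf13c at 2 h, of Cideb, Gpam, Nfib, Pnpla2, Tubb6, Tnfrsf13c and Ucp1 at 4 h, and of Ebpl, Mfge8, Mppe1, Nfkbia, Nol6 and Rcbtb2 at 6 h. Averaged probe sets ended those of Cebpb at 2 h, Ebpl, Gpam, Pnpla2, Rcbtb2 and Tubb6 at 4 h, and Ebpl and Nol6 at 6 h. Median centring ended those of Cebpb at 2 h and Mppe1 at 6 h, and array weights those of Ebpl, Mfge8 and Mppe1 at 6 h.

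Samples with the same letter did not deviate together in every pair (r from -0.13 to 0.32), and 13 of 36 correlated best with their own letter, so the letters were not used as pairs. With a replicate block, 6, 29 and 31 relatives and 1, 4 and 2 neighbours were called at 2, 4 and 6 h. The block ended the call of Cebpb at 2 h and no other call of a named gene. Over all genes the block gave 432, 4909 and 5388 calls in place of 488, 4893 and 5408, and fits of only the groups compared gave 134, 3081 and 3618.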
